A study of Mus musculus with 62 samples.

Results

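The proteasome was described here through the transcripts of 37 subunit genes in the diaphragm of mice that carried melanoma xenografts. The genes were chosen by symbol, as the constitutive subunits of the 20S core, the 19S cap and the activators, from a table of 47643 genes. The rule itself used no measured value, but earlier results of these data were known when the choice was made. RNA-seq libraries were made from the diaphragms of 62 female mice, 1 library per mouse. Cachectic mice were injected with melanoma cells that cause cachexia, non-cachectic mice with melanoma cells that do not, and control mice were mock injected. Diaphragms were taken at 2, 4, 6 and 8 weeks, with 5 mice per group and week and, for the cachectic group at 8 weeks, 7 mice. The mice were 2 months old at injection and carried no engineered allele that the labels name. The sample labels give the strain as C57BL/6J, whereas the series' design text and the methods name NCI Ath/nude mice, which lack T cells and accept human tumors, and this difference was not settled here.

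The proteasome degrades proteins that have been tagged with chains of ubiquitin. Its core is a barrel of alpha rings, which gate the entrance, and beta rings, which hold the proteolytic sites, and its regulatory cap binds ubiquitin chains, removes them and uses ATPases to unfold the substrate and thread it into the core. In skeletal muscle this system breaks down myofibrillar proteins, and proteasome genes are known to be induced with muscle ubiquitin ligases in many forms of muscle wasting.

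The values are TPM, the share of a gene's transcripts in a library after scaling by gene length, so that levels can be compared between genes. Every library summed to 1000000, and the depth in reads is unknown. All 37 subunits were among the 13578 genes that reached 1 TPM in 5 or more mice. Between 15069 and 19057 genes were above 0 in a library, and 4 libraries stood apart: at 8 weeks cachectic replicate 3, and at 2 weeks cachectic replicates 3 and 4 with non-cachectic replicate 5. These 4 libraries had at most 16389 genes above 0 against at least 17909 in the other 58 libraries, and mitochondrially encoded transcripts took 54.4 to 61.5% of their TPM against at most 50.1% in the others. All 10 myofiber markers were above 0 in all 62 mice, and the 5 melanocyte markers, which mark the tumor's cell type, summed to at most 1.07 TPM. The xenografts came from patients and reads were mapped to the mouse genome, so this sum cannot show whether tumor cells were present. In a whole muscle, fewer cells of a type and less RNA per cell cannot be told apart.

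Proteasome subunit transcripts were present at unequal levels in control diaphragms. Over the 20 control mice the mean TPM of a subunit had a median of 67.0, and the highest and lowest means differed 38.2-fold. Psmb1, a structural beta ring subunit, had the highest mean at 192 ± 10.2 TPM (SD, n = 20), and Psmf1, which encodes an inhibitor of the core, the lowest at 5.03 ± 0.448 TPM (SD, n = 20). By class, the median of the subunit means was 124 TPM for the 6 ATPases of the cap, 96.6 TPM for the 7 beta ring subunits, 76.0 TPM for the 7 alpha ring subunits, 51.6 TPM for the 12 other cap subunits and 36.2 TPM for the 4 activators and Psmf1 counted as 1 class. The levels varied little among control mice, with a median coefficient of variation of 6.59% over the 37 subunits.

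Summed over the 37 subunits, the mean proteasome TPM was highest in cachectic mice at 6 and 8 weeks. The sum in control mice was 2833 ± 56.0 TPM at 2 weeks, 2904 ± 119 at 4 weeks, 2917 ± 118 at 6 weeks and 2929 ± 162 at 8 weeks (SD, n = 5 each). In cachectic mice it was 3038 ± 214 TPM at 2 weeks, 3139 ± 279 at 4 weeks and 3522 ± 396 at 6 weeks (SD, n = 5 each), and 3535 ± 345 at 8 weeks (SD, n = 7). In non-cachectic mice it lay between 2824 ± 64.7 and 2936 ± 155 TPM at the 4 time points (SD, n = 5 each). These sums were not tested, since they depend on which subunits are counted. The mitochondrially encoded share of TPM differed in the opposite direction at 6 weeks, at 39.6 ± 3.76% in cachectic and 46.4 ± 1.27% in control mice (SD, n = 5 each). When TPM were rescaled to a sum of 1000000 without the 37 mitochondrially encoded genes, the sums at 6 weeks were 5822 ± 306 in cachectic and 5438 ± 118 in control mice, and at 8 weeks 6047 ± 900 and 5330 ± 80.1. On that scale the cachectic sum was as high at 2 weeks, 6233 ± 1221 against 5216 ± 251 in control and 5749 ± 704 in non-cachectic mice, in conditions that hold 3 of the 4 few-gene libraries. The cachectic median at 8 weeks was 5709, and 7521 was the highest value.

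Each subunit was then compared between groups on the log2(TPM + 1) scale with limma, fitted to all 13578 genes and 62 mice, and a subunit was called where the Benjamini-Hochberg adjusted p over all genes was under 0.05. In cachectic versus control mice at 6 weeks, 9 of 37 subunits rose and 0 fell, where 5.62% of all genes rose and 1.17% fell; with other scalings of the libraries, given later, 1 to 3 subunits were called at 6 weeks, and 2 without cachectic replicate 1. At 8 weeks 9 subunits rose and 0 fell, where 6.65% of all genes rose and 8.12% fell. The median log2 fold change of the 37 subunits was 0.25 at 6 weeks and 0.22 at 8 weeks, beside medians of 0.17 and -0.09 over all genes. Of the 37, 34 had a positive log2 fold change at 6 weeks and 27 of 37 at 8 weeks. The same 6 subunits were called at both weeks, 3 only at 6 weeks and 3 only at 8 weeks.

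The tumor-bearing groups were compared next. They carried xenografts of different melanoma cells, so that cachexia and the identity of the tumor cannot be told apart. At 6 weeks 9 subunits rose and 0 fell against non-cachectic mice, where 4.28% of all genes rose and 1.57% fell, and the median log2 fold change was 0.24 for subunits and 0.14 for all genes. With median-ratio scaling 2 were called there, with quantile normalization 4 and without mitochondrially encoded genes 3 higher and 1 lower, and without cachectic replicate 1 there were 2. The shares of all genes called under those settings are not given, so these counts cannot be set against them. At 8 weeks 14 subunits rose and 0 fell, where 6.75% of all genes rose and 6.19% fell, and the medians were 0.26 and -0.08. Of these calls, those of Psma2, Psma4, Psma5, Psmb3, Psmb6 and Psmc6 held under only 1 of 4 scalings. The comparisons with control and with non-cachectic mice use the same cachectic libraries, so their counts are not separate evidence. Between the non-cachectic and control mice, which share no library, 0 of 37 subunits were called by limma at each of the 4 time points, with 0 at an unadjusted p under 0.05. At 2 weeks 0.0147% of all genes were higher and 4.42% lower in that comparison, and at 4, 6 and 8 weeks 0% were called.

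**Figure D1:**
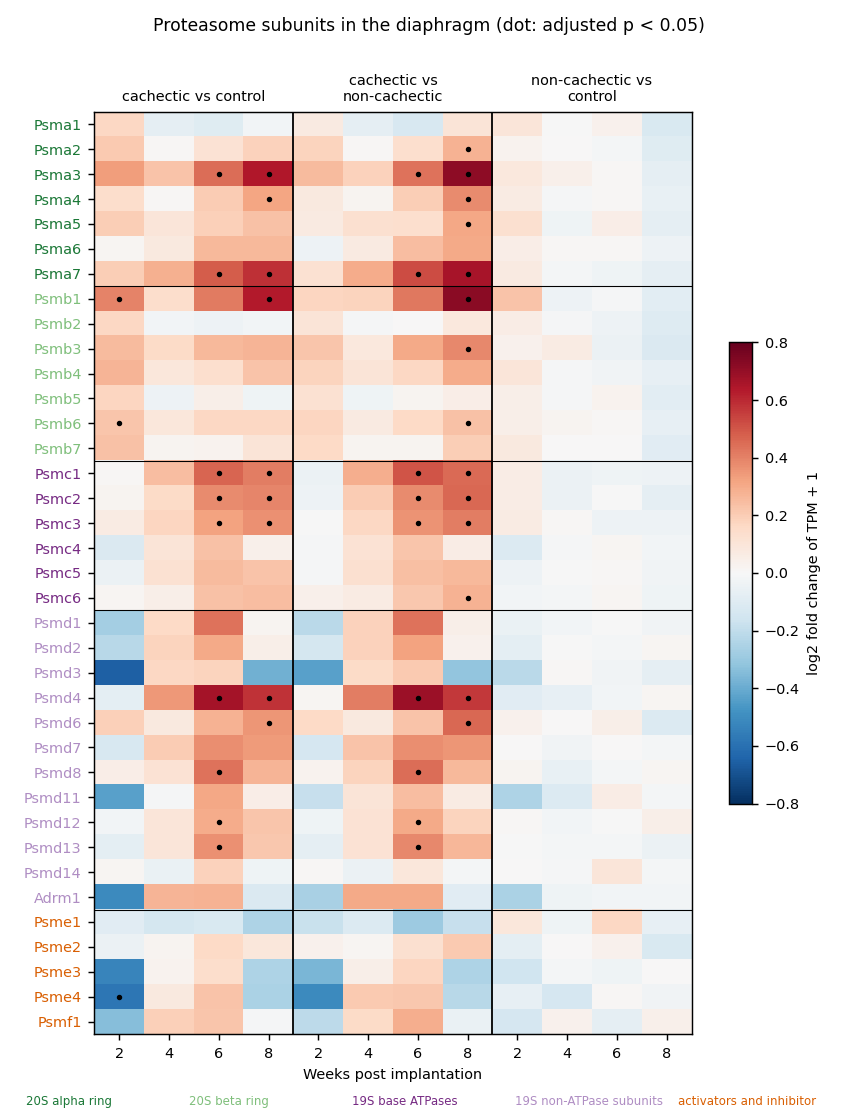
Heat map of the log2 fold change of TPM + 1 for the 37 subunits (rows, grouped by structural class) in 12 comparisons (columns, by weeks post implantation), with a dot where the limma adjusted p was under 0.05. Dots gather in the cachectic columns at 6 and 8 weeks, and the columns of non-cachectic versus control mice hold 0 dots.

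The earlier time points had few calls. At 4 weeks 0 of 37 subunits were called by limma in cachectic versus control mice, with 4 higher at an unadjusted p under 0.05, where 0.0147% of all genes were called higher and 0.00736% lower. The median log2 fold change there was 0.10 for subunits and 0.04 for all genes, and 31 of 37 were positive. At the same week 0 were called against non-cachectic mice, with 3 higher at an unadjusted p under 0.05, where 0.0295% of all genes were called higher. At 2 weeks Psmb1 (log2 fold change 0.40, limma adjusted p = 0.0331) and the catalytic subunit Psmb6 (0.22, adjusted p = 0.0338) were higher in cachectic than in control mice, and Psme4 was lower (-0.58, adjusted p = 0.0386), where 1.41% of all genes were higher and 27.8% lower. Those 3 calls rest on a condition in which 2 of 5 cachectic libraries are among the 4 that list the fewest genes, and without the 4 libraries 0 subunits were called at 2 weeks. The comparison with non-cachectic mice gave 0 calls, with 2 higher and 1 lower at an unadjusted p under 0.05, where 0% of all genes were called.

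Over time within a group, 2 of 37 subunits were higher at 8 than at 4 weeks in cachectic mice, where 1.3% of all genes were higher and 0.773% lower. They were Psmb1 (log2 fold change 0.48, limma adjusted p = 0.0345) and the cap subunit Psmd6 (0.29, adjusted p = 0.0468), and 0 were called under each of the median-ratio, quantile and non-mitochondrial scalings. In control and in non-cachectic mice 0 subunits were called between 4 and 8 weeks by limma, with 0 at an unadjusted p under 0.05 and 0% of all genes called. Whether the cachectic difference itself grew was tested as an interaction: 0 of 37 subunits and 0% of all genes changed their cachectic minus control difference between 4 and 6 weeks or between 6 and 8 weeks by limma, with 0 subunits at an unadjusted p under 0.05. The differences therefore passed the test at 6 and 8 weeks and not at 4 weeks, without a detectable difference between the weeks. Psmd4, for example, had a change of 0.32 with a standard error of 0.24 between 4 and 6 weeks.

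The calls were spread unevenly over the parts of the particle, as a description of the 37 genes, and differences between the parts were not tested. In cachectic versus control mice at 6 weeks 3 of 6 ATPases rose (median log2 fold change 0.29), 4 of 12 other cap subunits (0.31), 2 of 7 alpha ring subunits (0.20), 0 of 7 beta ring subunits (0.14) and 0 of 5 activator and inhibitor genes (0.16). Of all genes 5.62% rose there, with a median of 0.17, near the beta ring and activator medians. At 8 weeks the counts were 3 of 6 ATPases (0.31), 2 of 12 other cap subunits (0.13), 3 of 7 alpha ring subunits (0.26), 1 of 7 beta ring subunits (0.17) and 0 of 5 activator and inhibitor genes (-0.24), where 6.65% of all genes rose, with a median of -0.09. In the 8-week comparison with non-cachectic mice 4 of 6 ATPases (0.35), 5 of 7 alpha ring subunits (0.31), 3 of 7 beta ring subunits (0.24) and 2 of 12 other cap subunits (0.12) rose, and 0 of 5 activator and inhibitor genes (-0.18), where 6.75% of all genes rose, with a median of -0.08. Of the 37 subunits, 6 were called in all 4 comparisons of cachectic mice with control and non-cachectic mice at 6 and 8 weeks: the alpha ring subunits Psma3 and Psma7, the ATPases Psmc1, Psmc2 and Psmc3, and the ubiquitin receptor Psmd4. The share of all genes called in all 4 was not computed, and both comparisons of a week use the same cachectic libraries. This count is therefore a description only. The 6-week calls of these 6 subunits against control depended on the scaling: Psma3, Psma7, Psmc2 and Psmc3 were called under 1 of 4 scalings, Psmc1 under 3 and Psmd4 under 4, while at 8 weeks all 6 were called under all 4. Another 6 were called in 2 of them, the core subunits Psma4 and Psmb1 and the cap subunit Psmd6 at 8 weeks and the cap subunits Psmd8, Psmd12 and Psmd13 at 6 weeks. A further 5 (Psma2, Psma5, Psmb3, Psmb6 and Psmc6) were called only against non-cachectic mice at 8 weeks, and 20 in none of them. Each of these 5 calls held under 1 of 4 scalings, with limma adjusted p up to 0.435, 0.303, 0.0981, 0.302 and 0.342. The 8-week class counts depended on the 4 libraries with the fewest genes. Without them 10 of 12 other cap subunits rose against control at 8 weeks, where 22.2% of all genes did. The activator and inhibitor medians at 8 weeks were then 0.03 against control and 0.02 against non-cachectic mice.

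**Figure D2:**
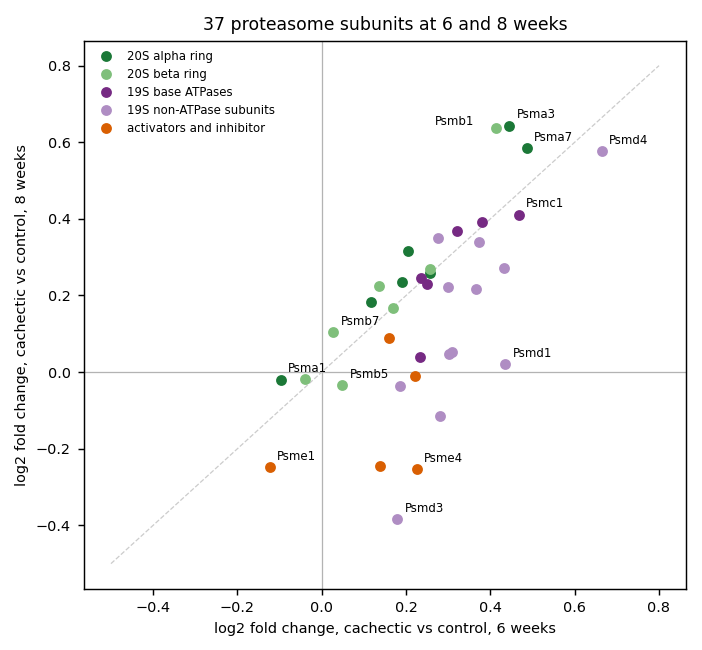
Log2 fold change of TPM + 1 in cachectic versus control mice at 6 weeks (horizontal axis) and 8 weeks (vertical axis) for the 37 subunits, coloured by structural class, with a dashed line of equal change. Psmd4, Psma3, Psma7 and Psmb1 lie farthest to the upper right, Psmd3 and the activators Psme1 and Psme4 are below 0 at 8 weeks, and 27 subunits are positive at both weeks.

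The comparisons at 6 and 8 weeks used separate mice, and across the 37 subunits their log2 fold changes had a Pearson r of 0.657 and a Spearman rho of 0.669, with 30 subunits of the same sign. This is across genes of one complex measured in the same libraries, and genes are not independent replicates. Within conditions, subunits of the same ring or cap varied together from mouse to mouse. The median Spearman rho between subunits, after removing condition means over 62 mice, was 0.736 among alpha ring, 0.621 among beta ring, 0.677 among ATPase and 0.669 among the other cap subunits, but 0.0582 among the activators and Psmf1. Over all 666 pairs of subunits the median was 0.304 and 507 (76.1%) were positive, close to a median of 0.288 and 80.7% positive over all pairs of the 13578 genes, which share the same libraries. Without the 4 libraries with the fewest genes the medians were 0.35 for the subunits and 0.218 for all genes over 58 mice.

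Subunits were also counted by whether the groups overlapped. In cachectic versus control mice at 6 weeks 15 of 37 subunits had every cachectic mouse above every control mouse, where 15.9% of all genes did, and at 8 weeks 6 of 37, where 2.52% did. Against non-cachectic mice it was 9 of 37 at 6 weeks (13.6% of all genes) and 8 of 37 at 8 weeks (2.45%). At 4 weeks 4 of 37 were above control without overlap, where 4.91% of all genes were. All 7 cachectic mice at 8 weeks, the few-gene library included, enter the 8-week counts.

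The promoters of the subunits called in all 4 comparisons are shown next, with that of the catalytic subunit Psmb5, which was not called, for contrast. The windows are the 250 bases before the RefSeq gene start (GRCm38.p6), and RefSeq windows were found for 31 of 37 subunits, Psmb1, Psmb2, Psmb7, Psmc3, Psmd3 and Psmd7 being those without one. They lie at chr12:70974373-70974622 on the plus strand (Psma3), chr2:180042465-180042714 on the minus strand (Psma7), chr12:100109952-100110201 on the plus strand (Psmc1), chr5:21785025-21785274 on the plus strand (Psmc2), chr3:95042615-95042864 on the minus strand (Psmd4) and chr14:54617996-54618245 on the minus strand (Psmb5). The sequences are written 5′ to 3′ on the gene's strand, and capitals mark the CCAAT box, the ETS core CCGGAAG and the antioxidant response element TGACNNNGC, on either strand:
Psma3: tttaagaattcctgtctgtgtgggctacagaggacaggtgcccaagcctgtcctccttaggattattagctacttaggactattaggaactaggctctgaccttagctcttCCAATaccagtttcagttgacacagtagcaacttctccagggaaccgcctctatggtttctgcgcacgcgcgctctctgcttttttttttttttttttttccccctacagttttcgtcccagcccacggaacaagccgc
Psma7: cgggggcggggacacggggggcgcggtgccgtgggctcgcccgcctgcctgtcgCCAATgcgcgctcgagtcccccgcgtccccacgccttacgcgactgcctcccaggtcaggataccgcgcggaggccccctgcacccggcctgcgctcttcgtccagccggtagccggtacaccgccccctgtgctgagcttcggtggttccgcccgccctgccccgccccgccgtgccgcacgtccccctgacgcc
Psmc1: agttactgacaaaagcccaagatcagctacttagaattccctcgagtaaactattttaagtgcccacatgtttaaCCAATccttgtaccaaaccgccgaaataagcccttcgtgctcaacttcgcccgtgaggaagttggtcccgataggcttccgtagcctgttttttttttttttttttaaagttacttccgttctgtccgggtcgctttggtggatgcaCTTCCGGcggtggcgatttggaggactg
Psmc2: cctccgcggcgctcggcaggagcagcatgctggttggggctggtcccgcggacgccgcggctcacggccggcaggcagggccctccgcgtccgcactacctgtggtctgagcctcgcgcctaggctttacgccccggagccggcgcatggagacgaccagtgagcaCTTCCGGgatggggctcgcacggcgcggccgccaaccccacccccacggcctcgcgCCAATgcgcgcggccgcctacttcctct
Psmd4: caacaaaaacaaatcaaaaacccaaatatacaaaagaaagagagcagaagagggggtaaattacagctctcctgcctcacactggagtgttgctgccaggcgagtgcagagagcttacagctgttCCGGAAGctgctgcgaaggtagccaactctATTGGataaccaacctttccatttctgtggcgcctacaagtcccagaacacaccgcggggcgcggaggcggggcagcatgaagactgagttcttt
Psmb5: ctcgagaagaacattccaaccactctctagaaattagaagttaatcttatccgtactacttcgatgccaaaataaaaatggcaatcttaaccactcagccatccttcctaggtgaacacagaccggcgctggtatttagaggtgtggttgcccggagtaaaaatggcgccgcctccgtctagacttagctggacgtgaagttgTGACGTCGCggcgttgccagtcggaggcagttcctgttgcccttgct

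The CCAAT box, which NF-Y binds, is in all 5 of the printed promoters of called subunits, at 139 bases before the start in Psma3, 196 in Psma7, 175 in Psmc1, 28 in Psmc2 and, on the other strand, 95 in Psmd4. It is in 12 of the 31 subunit promoters (38.7%) and in 34.5% of 27025 promoters of the same length, and in 5 of 16 promoters of subunits called in none of the 4 comparisons. Among subunits called in 1 or 2 comparisons, Psma2 and Psmb3 hold a CCAAT box. Psma4, Psma5, Psmb6, Psmc6, Psmd6, Psmd8, Psmd12 and Psmd13 do not. The ETS core is in Psmc1, Psmc2 and Psmd4, and in 10 of 31 subunit promoters (32.3%) against 7.05% of all promoters. The antioxidant response element, a site for factors such as Nfe2l1, is in 5 of 31 (16.1%) against 10.1% of all promoters, and lies 47 bases before the start of Psmb5. The TATA box TATAAA is in 3 of 31 (9.68%) against 13.0%. Both strands were searched, no motif contains another although neighbours can share a letter at an end, a match is a description of the letters and not of binding, and no test was made.

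Psmd4 encodes the cap subunit that binds ubiquitin chains directly, and at 6 weeks it had the largest fold change of the 37 (chr3:95032694-95042614, minus strand). At 6 weeks the cachectic mice had 140, 106, 101, 111 and 89.3 TPM, the control mice 64.1, 77.4, 67.6, 69.5 and 62.2 TPM, and the non-cachectic mice 64.4, 67.4, 74.4, 63.3 and 65.7 TPM. Every cachectic mouse was above every mouse of both other groups. The fold was 1.59 (95% interval 1.25 to 2.00, log2 fold change 0.66, SE 0.168, limma adjusted p = 0.00876) against control and 1.61 against non-cachectic mice (adjusted p = 0.0073), and without cachectic replicate 1, the highest mouse, the adjusted p against control was 0.0607. At 8 weeks the cachectic mice ran from 47.4 TPM through a median of 104 to 145 TPM, against 65.0, 71.1, 72.6, 67.2 and 63.9 TPM in control mice and 70.1, 66.3, 77.1, 66.1 and 63.8 TPM in non-cachectic mice. Replicate 3, a library with few genes, lay below all reference mice, and the other 6 cachectic mice lay above them all. The fold was 1.49 (1.20 to 1.85, adjusted p = 0.00692) against control and 1.48 against non-cachectic mice (adjusted p = 0.00942), and 1.69 against control without the 4 libraries (adjusted p = 2.17e-08). At 4 weeks the cachectic mice had 81.4, 114, 75.3, 96.1 and 74.3 TPM against 65.6, 64.6, 69.5, 73.1 and 69.6 TPM in control mice. They did not overlap with control, as was so for 4.91% of all genes, and limma did not call Psmd4 at 4 weeks.

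Psma3 and Psma7 encode subunits of the alpha ring, which forms the gate of the core. Psma3 (chr12:70974621-70996347, plus strand) had 84.5, 77.5, 77.4, 71.6 and 62.5 TPM in cachectic mice at 6 weeks, 52.4, 54.0, 57.9, 55.9 and 51.7 TPM in control mice and 50.9, 58.2, 60.6, 52.9 and 51.8 TPM in non-cachectic mice. At 8 weeks cachectic mice ran from 65.6 TPM through a median of 78.6 to 110 TPM, against 50.5, 60.2, 55.7, 52.5 and 49.6 TPM in control and 50.9, 47.1, 52.6, 50.9 and 53.4 TPM in non-cachectic mice. At both weeks the cachectic mice were above all others with no overlap. The Psma3 fold against control was 1.36 (1.12 to 1.65, SE 0.138 on the log2 scale, limma adjusted p = 0.0369) at 6 weeks and 1.56 (1.31 to 1.86, SE 0.128, adjusted p = 0.000219) at 8 weeks. The 6-week call of Psma3 was lost in 8 of the 10 fits that leave out 1 mouse (adjusted p up to 0.138), all but those without cachectic replicate 5 or control replicate 3, and the 8-week call in 0 of 12.

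Psma7 (chr2:180036374-180042433, minus strand) had 87.6, 74.6, 70.9, 66.1 and 54.1 TPM in cachectic mice at 6 weeks and 48.1, 50.0, 50.6, 52.3 and 46.7 TPM in control mice. The non-cachectic mice had 45.7, 50.7, 54.2, 47.8 and 43.4 TPM, so that the highest of them reached the lowest cachectic mouse, while cachectic and control mice did not overlap. At 8 weeks cachectic mice ran from 60.2 TPM through a median of 73.1 to 105 TPM, above 48.0, 53.7, 52.3, 50.1 and 46.1 TPM in control mice and 50.0, 43.7, 51.4, 42.5 and 50.3 TPM in non-cachectic mice. The Psma7 fold against control was 1.40 (1.19 to 1.65, limma adjusted p = 0.00571) at 6 weeks and 1.50 (1.29 to 1.74, adjusted p = 9.16e-05) at 8 weeks. Against non-cachectic mice Psma3 was 1.64-fold and Psma7 1.58-fold higher at 8 weeks (adjusted p = 6e-05 and 1.79e-05).

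Psmb1, a beta ring subunit without a proteolytic site, was the most abundant member (chr17:15475021-15499751, minus strand). It had 311, 249, 264, 237 and 225 TPM in cachectic mice at 6 weeks, 188, 191, 194, 203 and 182 TPM in control mice and 184, 198, 196, 198 and 177 TPM in non-cachectic mice. At 8 weeks the lowest, median and highest cachectic values were 235, 317 and 345 TPM, against 181, 209, 190, 185 and 189 TPM in control mice and 187, 163, 185, 175 and 191 TPM in non-cachectic mice. At both weeks the groups did not overlap, but only the 8-week difference passed the test: the fold was 1.33 at 6 weeks (limma adjusted p = 0.0644) and 1.55 at 8 weeks (1.30 to 1.86, adjusted p = 0.000367). The 8-week fold against non-cachectic mice was 1.65 (adjusted p = 7.79e-05).

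Psmc1, Psmc2 and Psmc3 encode ATPases of the ring that unfolds substrates and docks on the alpha ring. Psmc1 (chr12:100110154-100123405, plus strand) had 227, 190, 180, 183 and 170 TPM in cachectic mice at 6 weeks, 138, 138, 141, 139 and 128 TPM in control mice and 129, 141, 138, 128 and 131 TPM in non-cachectic mice. At 8 weeks it ran from 125 TPM through a median of 176 to 225 TPM in cachectic mice, against 126, 143, 131, 135 and 130 TPM in control and 136, 123, 140, 122 and 127 TPM in non-cachectic mice. The groups were apart at 6 weeks, and at 8 weeks cachectic replicate 3 lay below every control mouse and within the non-cachectic values while the other 6 were above all of them. The Psmc1 fold against control was 1.38 (1.21 to 1.58, limma adjusted p = 0.00123) at 6 weeks and 1.33 (1.17 to 1.51, adjusted p = 0.000781) at 8 weeks. For Psmc2 it was 1.30 (adjusted p = 0.0189) and 1.31 (adjusted p = 0.00342), and for Psmc3 1.25 (adjusted p = 0.0137) and 1.29 (adjusted p = 0.000661).

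The remaining calls against control were of similar size. At 6 weeks the cap subunits Psmd8, Psmd12 and Psmd13 were 1.35-fold (limma adjusted p = 0.0104), 1.23-fold (0.0278) and 1.29-fold (0.0351) higher. Of 4 scalings, 1 called Psmd8, 1 called Psmd12 and 2 called Psmd13, with limma adjusted p up to 0.503, 0.765 and 0.453. At 8 weeks the alpha ring subunit Psma4 was 1.24-fold (0.0128) and the cap subunit Psmd6 1.27-fold (0.00208) higher. These 2 calls held under 1 of 4 scalings, with adjusted p up to 0.223 for Psma4 and 0.09 for Psmd6. Reads of Psma4 and Psmd13 may be shared with genes on the other strand that overlap their exons, which also holds for Psma5, Psmb7, Psmc3, Psmd1, Psmd3 and Psme1, since how the counting used strand is not given in the sources used here. The scaffold subunit Psmd1 had a log2 fold change of 0.44 at 6 weeks but was not called (SE 0.191, adjusted p = 0.175), and its value at 8 weeks was 0.02. Psmd3, a scaffold of the cap's lid, had the most negative log2 fold change at 8 weeks, -0.38, with a standard error of 0.331 (adjusted p = 0.498).

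The 3 proteolytic sites of the core are carried by Psmb5, Psmb6 and Psmb7, and none of these was called against control mice at 6 or 8 weeks. Psmb5 (chr14:54614119-54618022, minus strand), with the chymotrypsin-like site, had 114, 96.1, 103, 102 and 84.9 TPM in cachectic mice at 6 weeks and 80.5, 101, 96.9, 106 and 97.6 TPM in control mice. At 8 weeks it ran from 92.0 TPM through a median of 97.8 to 104 TPM in cachectic mice, against 101, 111, 97.1, 97.1 and 96.2 TPM in control mice. The groups overlapped at both weeks, and the fold was 1.03 (0.899 to 1.19, limma adjusted p = 0.827) at 6 weeks and 0.977 (0.857 to 1.11, adjusted p = 0.864) at 8 weeks. The 8-week interval therefore reaches no higher than 1.11-fold, below the lower bounds of Psma3, Psma7 and Psmb1. Whether Psmb5 differs from those subunits was not tested.

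Psmb6 (chr11:70525367-70527858, plus strand), with the caspase-like site, had 132, 99.0, 109, 107 and 92.9 TPM in cachectic mice at 6 weeks and 90.4, 94.7, 96.8, 101 and 92.8 TPM in control mice. At 8 weeks it ran from 93.3 TPM through a median of 112 to 126 TPM in cachectic mice, against 93.0, 111, 104, 92.1 and 91.0 TPM in control mice. The groups overlapped at both weeks, with folds of 1.12 (1.01 to 1.26, limma adjusted p = 0.218) and 1.12 (1.01 to 1.24, adjusted p = 0.125), while against non-cachectic mice at 8 weeks Psmb6 was 1.18-fold higher (adjusted p = 0.0243). That call held under 1 of 4 scalings, with a limma adjusted p up to 0.302.

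Psmb7 (chr2:38588036-38644087, minus strand), with the trypsin-like site, had 88.8, 85.1, 87.0, 83.1 and 75.3 TPM in cachectic mice at 6 weeks and 81.3, 82.3, 82.2, 84.8 and 80.1 TPM in control mice. At 8 weeks it ran from 76.0 TPM through a median of 79.8 to 144 TPM in cachectic mice, the highest being replicate 3, against 79.5, 89.6, 85.1, 83.2 and 75.4 TPM in control mice. The folds were 1.02 (0.888 to 1.17, limma adjusted p = 0.906) and 1.07 (0.946 to 1.22, adjusted p = 0.508). The table also holds named pseudogenes of Psmb5, Psmb6 and Psmb7, and how multi-mapping reads were handled is not given in the sources used here, so these 3 levels are uncertain to that extent.

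The activators open the core without the ATPase cap. Psme4 (chr11:30771726-30880361, plus strand) encodes a large activator of the core, and it had 64.6, 74.9, 72.0, 59.1 and 57.5 TPM in cachectic mice at 6 weeks and 56.2, 63.4, 59.7, 49.3 and 51.2 TPM in control mice. At 8 weeks it ran from 17.2 TPM, in replicate 3, through a median of 51.4 to 68.3 TPM in cachectic mice, against 49.8, 53.6, 57.4, 59.2 and 54.5 TPM in control mice. The groups overlapped at both weeks, with folds of 1.17 (0.871 to 1.57, limma adjusted p = 0.599) and 0.839 (0.639 to 1.10, adjusted p = 0.439). Without cachectic replicate 3 the 8-week log2 fold change of Psme4 was -0.028. Psme1, of the interferon-inducible activator, had log2 fold changes of -0.12 (adjusted p = 0.573) at 6 weeks and -0.25 (adjusted p = 0.0967) at 8 weeks against control. It was the only subunit with every cachectic mouse below every non-cachectic mouse at 6 weeks (log2 fold change -0.29, adjusted p = 0.116), where 3.3% of all genes were below without overlap.

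**Figure D3:**
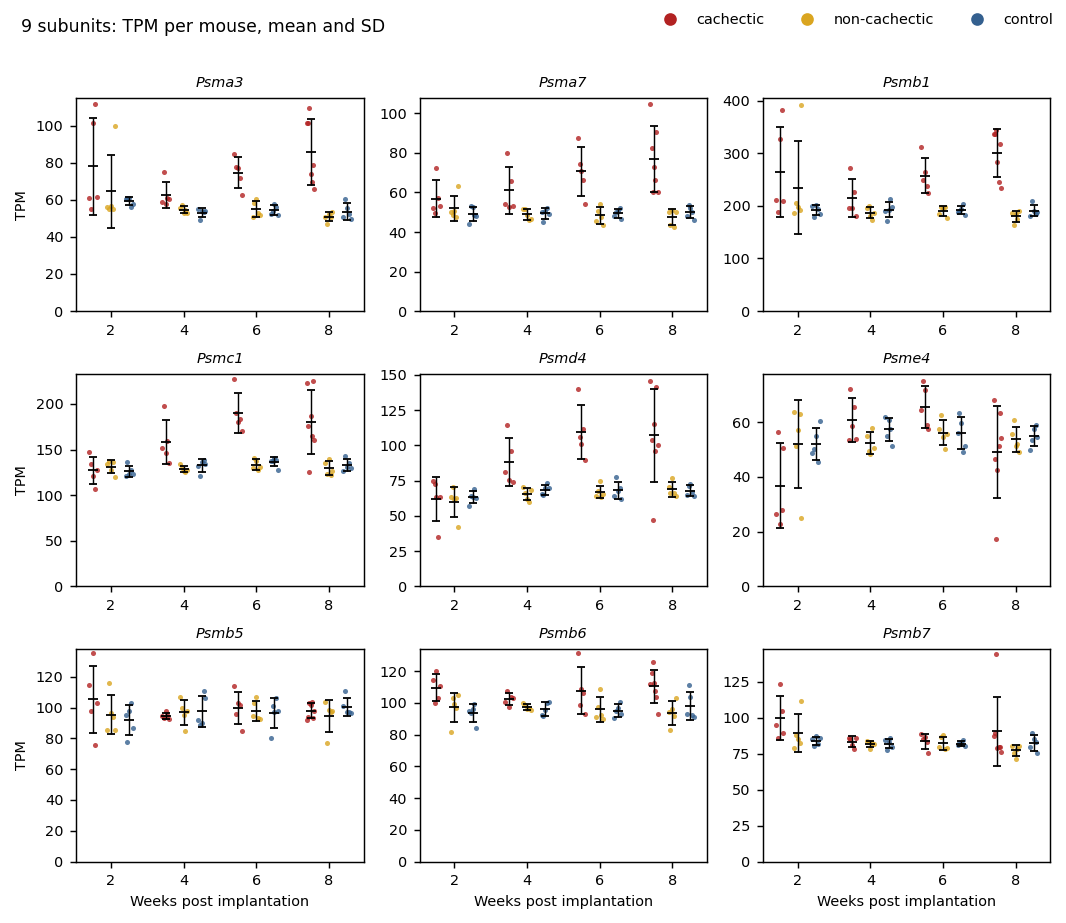
TPM of 9 subunits in every mouse (points) by weeks post implantation, with the mean and SD of each condition (dash and bars) and a vertical axis from 0. The cachectic points of Psma3, Psma7 and Psmb1 lie above those of both other groups at 8 weeks, cachectic replicate 3 at 8 weeks is the low point of Psmd4 and Psme4 and the high point of Psmb7, and the points of Psmb5 overlap.

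The 4 libraries with the fewest genes changed how many subunits were called. Without them, 25 of 37 subunits rose and 0 fell in cachectic versus control mice at 6 weeks, where 26.9% of all genes rose and 4.29% fell. At 8 weeks 22 rose and 1 fell, where 22.2% rose and 12.4% fell, and the median log2 fold change was 0.25 for subunits and 0.06 for all genes. The 1 that fell was Psme1 (log2 fold change -0.31, limma adjusted p = 0.00404). Against non-cachectic mice 22 rose and 1 fell at 6 weeks (22.1% and 5.18% of all genes) and 26 rose and 1 fell at 8 weeks (23.2% and 10.2%). At 8 weeks against control the calls included 10 of 12 non-ATPase cap subunits, 5 of 6 ATPases, 4 of 7 alpha ring and 3 of 7 beta ring subunits. Psmd1, for one, was then 1.22-fold higher (adjusted p = 0.000934). None of the libraries left out is from the 6-week conditions, so that the 6-week values are the same and only the estimate of the spread differs.

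The scaling between libraries mattered more at 6 than at 8 weeks. At 6 weeks, where all genes had a median log2 fold change of 0.17 against control, 1 subunit was called higher after median-ratio scaling (3.44% of all genes higher and 4.01% lower), 2 after quantile normalization (3.9% and 5.37%) and 3 after rescaling without mitochondrially encoded genes (2.82% and 3.35%). The share of subunits called at 6 weeks was thus near that of all genes under the median-ratio and quantile scalings. Psmd4 was called at 6 weeks under each of these 4 scalings, with log2 fold changes of 0.47 to 0.66 and an adjusted p of at most 0.0132 by limma. At 8 weeks the same scalings gave 11 higher (11.9% of all genes higher and 12.2% lower), 10 higher (10.9% and 14.4%), and 8 higher with 1 lower (5.5% and 21.2%), and Psma3, Psma7, Psmb1, Psmc1, Psmc2, Psmc3 and Psmd4 were called under each of the 4. With median-ratio scaling, the median over the 37 subunits was 0.06 at 6 weeks and 0.37 at 8 weeks, while the median of all genes was 0.01 at both. For the catalytic subunits Psmb5 and Psmb7 the sign at 6 weeks turned negative under all 3 other scalings, and for Psmb6 under median-ratio scaling alone. Leaving out the 4 libraries as well, a choice made after seeing the data, gave at 6 weeks 6 higher and 3 lower with median-ratio scaling (10.2% and 12.4% of all genes) and 9 higher and 3 lower without mitochondrially encoded genes (10.4% and 10.9%). At 8 weeks it gave 18 higher and 1 lower (20.2% and 18%) and 14 higher and 6 lower (12.3% and 26.2%). The lower ones at 8 weeks without mitochondrially encoded genes were Psma1, Psmb2, Psmb5, Psmb7, Psme1 and Psme3, among them 2 of the 3 catalytic subunits.

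**Figure D4:**
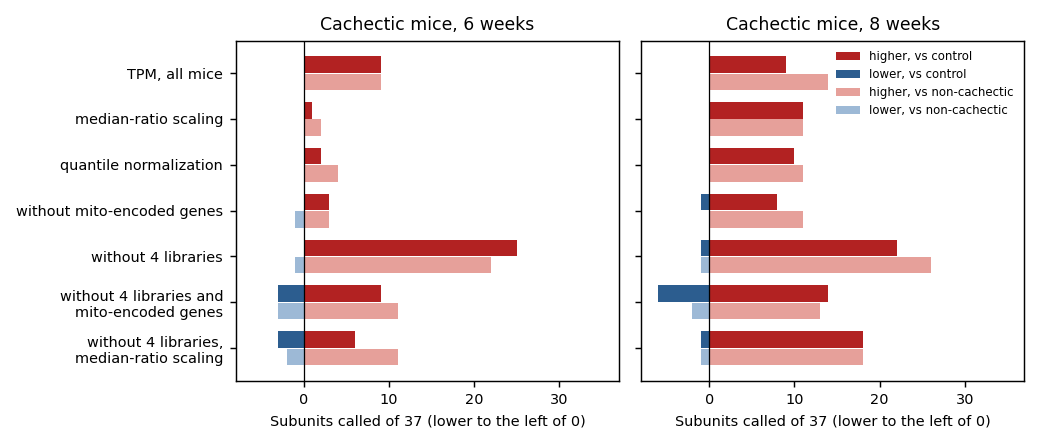
Number of the 37 subunits called at a limma adjusted p under 0.05 in cachectic mice at 6 weeks (left) and 8 weeks (right), against control and non-cachectic mice, under 7 settings, with subunits called lower drawn to the left of 0. The bars run from 1 to 25 subunits higher than control at 6 weeks and from 8 to 22 at 8 weeks.

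Proteins that serve the proteasome were looked at next, from 9 lists written for the pathway. The immunoproteasome subunits Psmb8, Psmb9 and Psmb10, which replace the catalytic subunits when interferon acts, had log2 fold changes against control of 0.11, -0.12 and 0.05 at 6 weeks and 0.05, -0.24 and 0.06 at 8 weeks, and limma called 0 of 3 at both weeks. Of 16 interferon response genes 0 were called at 6 weeks and 1 was lower at 8 weeks, Gbp3 (-0.67, adjusted p = 0.0427). Of the tissue-specific core subunits Psma8 and Psmb11, 0 of 2 passed the filter on low values. Of 8 assembly chaperones 0 were called at 6 weeks and 1 at 8 weeks, Psmg4 (0.38, adjusted p = 0.0232), and the maturation factor Pomp had 0.13 and 0.25. Of 9 associated proteins 1 was called at both weeks, the deubiquitinase Uchl5, which docks on the cap (0.40, adjusted p = 0.00504, and 0.33, adjusted p = 0.00562), while the other cap deubiquitinase, Usp14, had 0.16 and -0.04. As above, 5.62% of all genes were higher and 1.17% lower at 6 weeks, and 6.65% and 8.12% at 8 weeks. Without the 4 few-gene libraries, where 26.9% and 22.2% of all genes were higher and 4.29% and 12.4% lower, 0 of 3 immunoproteasome subunits were called at 6 weeks and Psmb9 was lower at 8 weeks (-0.42, adjusted p = 0.0287), 1 of 8 assembly chaperones was lower at 6 weeks and 2 were higher at 8 weeks, 2 of 9 associated proteins were higher at each week, and 0 and 2 of 16 interferon response genes were lower.

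Ubb, a gene of ubiquitin repeats, was among the ubiquitin genes examined. It had 1129 ± 164 TPM in cachectic and 560 ± 191 TPM in control mice at 6 weeks (SD, n = 5 each), a fold of 2.10 (limma adjusted p = 0.0215), and at 8 weeks 1087 ± 417 (SD, n = 7) and 568 ± 238 TPM (SD, n = 5), a fold of 1.91 (adjusted p = 0.0171). At 6 weeks its lowest cachectic value, 913 TPM, was above the highest control value of 750 TPM, and at 8 weeks the groups overlapped. Rps27a, which encodes ubiquitin fused to a ribosomal protein, had a log2 fold change of 0.78 (adjusted p = 0.00125) at 8 weeks.

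Of the factors that control proteasome genes, 2 of 12 were called higher at 6 weeks and 0 at 8 weeks, but 6 and 7 of 12 without the 4 few-gene libraries, where 26.9% and 22.2% of all genes were higher. The 2 were Stat3 (log2 fold change 1.31, limma adjusted p = 0.0174) and Ngly1 (0.43, adjusted p = 0.0361), the deglycosylase that activates the product of Nfe2l1. Nfe2l1 itself, the main transcription factor of proteasome recovery, had 0.14 (adjusted p = 0.871) and -0.52 (adjusted p = 0.366), and at 8 weeks cachectic replicate 3 stood at 34.2 TPM where the median of the 7 was 353 TPM. Of 11 shuttle factors and Vcp cofactors 0 were called at both weeks, and 4 and 3 were higher without the 4 libraries, Vcp having 0.15 and -0.25 in all mice. Of 10 muscle ubiquitin ligases 0 were called at either week, and 3 and 2 were higher without the 4 libraries, among them Trim63 (log2 fold changes 1.29, adjusted p = 0.0054, and 1.42, adjusted p = 0.00103, by limma). In all mice Trim63 had 1.29 (adjusted p = 0.0665) and 0.94 (adjusted p = 0.124), with 29.4 to 1303 TPM in cachectic mice at 8 weeks, and Fbxo32 had 0.59 (adjusted p = 0.482) and 0.10 (adjusted p = 0.91).

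**Figure D5:**
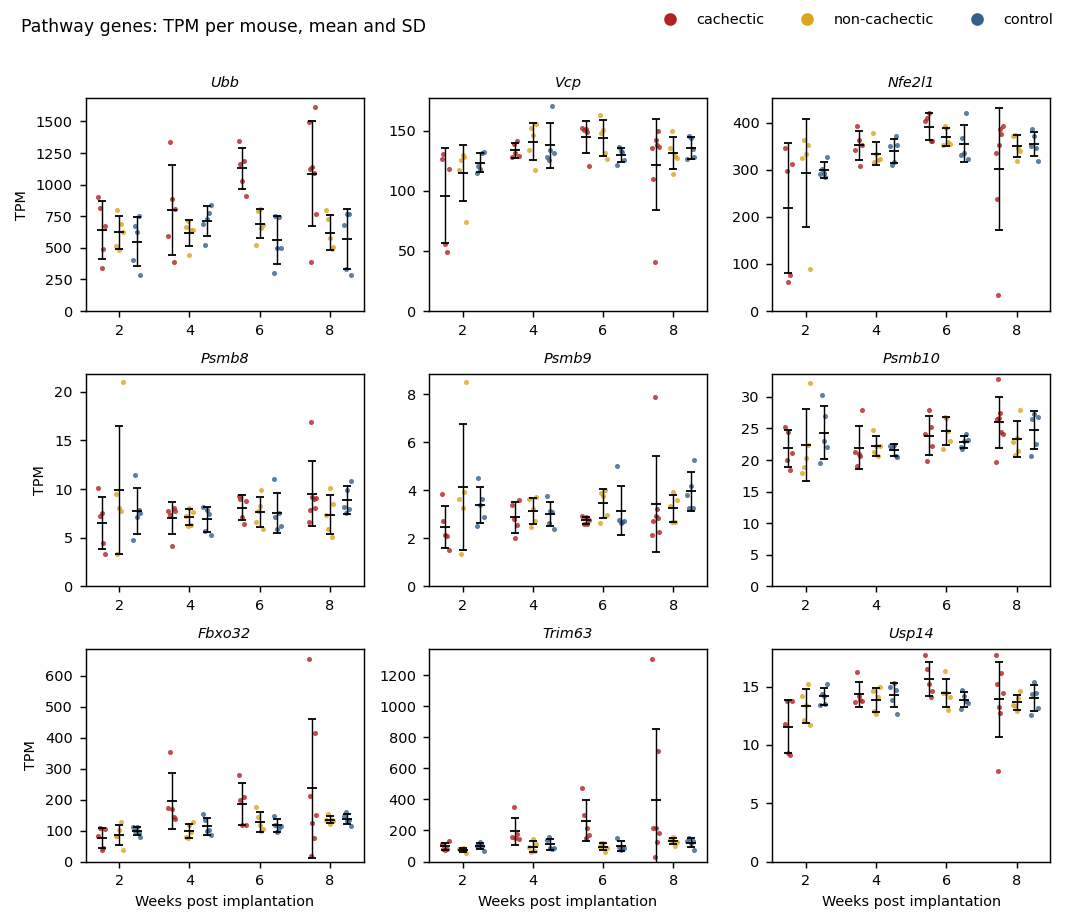
TPM in every mouse (points) of 9 pathway genes by weeks post implantation, with the mean and SD of each condition (dash and bars) and a vertical axis from 0. The cachectic points of Ubb lie above the control points at 6 weeks, those of Trim63 spread from 29.4 to 1303 TPM at 8 weeks, and those of Psmb8, Psmb9 and Psmb10 overlap with the other groups.

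Markers of other cells in the muscle moved with these comparisons. Of 8 macrophage markers 3 were higher in cachectic than in control mice at 6 weeks and 5 at 8 weeks, and their summed level was 160 to 292 TPM against 105 to 168 TPM at 6 weeks and 148 to 434 TPM against 119 to 183 TPM at 8 weeks, ranges that overlap at both weeks. All 8 were above 0 in all 62 mice, with the sum at most 434 TPM where the 10 myofiber markers summed to at least 57214 TPM. Summed levels of other lists did not overlap with control at 1 week each: 8 neutrophil markers had 17.0 to 31.9 TPM in cachectic and 4.16 to 13.2 TPM in control mice at 6 weeks, 5 satellite cell markers 24.3 to 34.2 TPM and 18.2 to 22.2 TPM at 6 weeks, and 8 adipocyte markers 1748 to 4453 TPM and 888 to 1601 TPM at 8 weeks. At the other week they overlapped with control. Neutrophil sums were then 9.25 to 74.8 against 4.39 to 15.3 TPM, and satellite cell sums 4.42 to 31.6 against 21.2 to 24.9 TPM. Adipocyte sums were 1133 to 2437 against 848 to 1309 TPM. The named weeks also overlapped with non-cachectic mice, whose highest sums were 18.7, 26.4 and 2680 TPM. Of these lists, 0 of 4 neutrophil markers tested and 1 of 4 satellite cell markers tested were called higher at 6 weeks and 1 of 8 adipocyte markers at 8 weeks, where 5.62% and 6.65% of all genes were. Of 8 fibroblast markers 1 was higher and 4 were lower at 8 weeks, and of the 10 liver markers 0 were called at 6 or 8 weeks. Single libraries still held many liver transcripts. The liver markers summed to 5713 TPM in cachectic replicate 5 at 6 weeks, where the cachectic median was 101 TPM. That library is among the 4 with the highest liver markers. At 8 weeks the cachectic sums reached 2559 TPM, with a median of 89.7 TPM. The part of these cells in the subunit levels was not tested.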

How the data were processed

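RNA was extracted with Trizol from the diaphragm of each mouse, and libraries were sequenced on an Illumina NovaSeq instrument. The labels name a TruSeq stranded kit and the methods an unstranded version, and the protocol was not settled here. The authors trimmed and filtered reads, mapped them in CLC Genomics Workbench 12.0.1 (GRCm38, also called mm10) and deposited TPM values per gene and mouse. The annotation release, the strand setting and the handling of multi-mapping reads are not given in the sources used here. TPM are shares of a library, so a change in abundant transcripts shifts the values of others, and depth and counting error are unknown.

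Groups came from the labels' treatment and time. From the TPM, log2(TPM + 1) was computed, 13578 genes that reached 1 TPM in 5 or more mice were kept, and limma 3.58.1 (R 4.3.3, trended prior) fitted 12 condition means over 62 mice. There were 17 comparisons, and p-values were adjusted by Benjamini-Hochberg over all genes within each. A fold is 2 to the power of the log2 difference of TPM + 1, and understates changes of low genes. The study's methods test log-transformed TPM by Kruskal-Wallis, then Dunn, and this was run as an alternative. Nothing beyond separate mice is stated about replicates. No 2 libraries held identical values (highest correlation between libraries 0.992).

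The 37 members, the pathway and marker lists, the tests and the alternatives were chosen with earlier results of these data known. Values in every mouse are given for the 3 called members with the largest change in each direction in cachectic versus control mice at 8 weeks and at 6 weeks, the member with the largest absolute change in each class at 8 weeks, and Psmb5, Psmb6, Psmb7 and Psme4. Pathway genes named are a set list and at most the 3 called genes with the largest change per list and week; some items of the pathway are not reported here.

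Positions come from GENCODE M21 (GRCm38) by symbol, and promoters from RefSeq (GRCm38.p6). For 26 of the 31 promoter windows the bases after the start were found in a GENCODE transcript of the gene. The alternatives changed the pseudocount (0.1), the low-value filter (none), the scaling (median-ratio, quantile, or without mitochondrially encoded genes), the library weights, the block (replicate number), the test (Dunn) and the mice in the fit (only those compared, or leaving out single mice, the 4 libraries with the fewest genes or the 4 with the highest liver markers), or also required a log2 fold change over 1. Plots used Python 3.11.15 and matplotlib 3.10.9.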

Additional observations from a re-analysis of the deposited data

Results flagged for a closer look

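Of 120 groups of mice examined for the 9 subunits given in every mouse and for the mean over the 37 subunits, 14 held a mouse that lay farther from the others than Dixon's 95% limit allows, where chance gives about 1 in 20 for independent groups. These groups are not independent, since the same mice enter for each subunit, so the count cannot be set against that rate. The mouse set apart was cachectic replicate 3 at 8 weeks for Psmd4 (47.4 TPM), Psme4 (17.2 TPM) and Psmb7 (144 TPM), and for the mean log2 level of the 37 subunits (5.81). It was non-cachectic replicate 5 at 2 weeks for Psma3 (99.8 TPM), Psmb1 (392 TPM), Psma7 (63.2 TPM), Psmd4 (42.0 TPM) and Psme4 (24.9 TPM), and cachectic replicate 4 at 2 weeks for Psmd4 (35.1 TPM). All 3 of these mice are among the 4 libraries with the fewest genes above 0. The other mice were cachectic replicate 2 at 4 weeks for Psma3 (74.9 TPM), control replicate 2 at 4 weeks for Psma3 (49.1 TPM), control replicate 5 at 6 weeks for Psmc1 (128 TPM) and non-cachectic replicate 2 at 8 weeks for Psmb5 (76.9 TPM). In the few-gene libraries, Psma3, Psmb1 and Psma7 were high and Psmd4 and Psme4 low in the same mouse, non-cachectic replicate 5 at 2 weeks, so the subunits did not move together there. The cause was not tested.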

How the results depend on the processing

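Counts are subunits called of 37, with the number lower in parentheses where there were any, and the cause of each change was not tested. For settings such as array weights, only the conditions compared and the scalings at 2 weeks, no share of all genes is given. Such counts show dependence on the setting and are not read as a result about the subunits. Cachectic mice at 6 weeks against control gave 9 subunits, and 1 with median-ratio scaling, 2 with quantile normalization, 3 without mitochondrially encoded genes, 30 with array weights, 17 with only the conditions compared, 25 without the 4 libraries with the fewest genes and 0 with Dunn's test, which gave 15 at an unadjusted p under 0.05. Against non-cachectic mice at 6 weeks the 9 became 2, 4, 4 (1 lower), 29 (2 lower), 16 (1 lower), 23 (1 lower) and 0. Cachectic mice at 8 weeks against control gave 9, and 19 (2 lower) with array weights, 2 with only the conditions compared, 23 (1 lower) without the 4 libraries and 3 with Dunn's test. Against non-cachectic mice at 8 weeks the 14 became 24 (1 lower), 3, 27 (1 lower) and 9. Over all genes, Dunn's test called 1014 against control and 592 against non-cachectic mice at 8 weeks, and 0 against either at 6 weeks. At 2 weeks against control the 3 calls became 23, 17 and 10 under the median-ratio, quantile and non-mitochondrial scalings, and 0 with array weights, only the conditions compared, the 4 few-gene or the 4 liver-high libraries left out, or Dunn's test. At 4 weeks the 0 became 2 with array weights against both references, and 2 without the 4 libraries against non-cachectic mice. In cachectic mice, 8 versus 4 weeks, the 2 calls became 1 with a pseudocount of 0.1, 0 with each other scaling, with only the conditions compared and with Dunn's test, 17 with array weights, 4 with the replicate block and 13 without the 4 libraries. The change of the difference from 4 to 6 weeks gave 17 with array weights. With a log2 fold change over 1 also required, 0 subunits remained in each comparison that had any.

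Leaving out the 4 libraries together with another scaling was chosen after seeing the data. With non-mitochondrial scaling it gave 0 subunits at 2 weeks, 1 against non-cachectic mice at 4 weeks, 14 (3 lower) against non-cachectic mice at 6 weeks, 20 (6 lower) against control at 8 weeks and 6 (2 lower) at 8 versus 4 weeks. With median-ratio scaling it gave 0 at 2 weeks, 19 (1 lower) against control at 8 weeks and 5 at 8 versus 4 weeks. The 6 subunits called in all 4 comparisons were called 6 of 6 at 8 weeks under these 7 settings of scaling and libraries, and 1 to 6 of 6 at 6 weeks against control.

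Leaving out 1 mouse at a time gave 0 to 14 subunits against control and 0 to 4 against non-cachectic mice at 2 weeks, 2 to 11 and 2 to 12 at 6 weeks, 9 to 16 (without cachectic replicate 3) and 10 to 18 at 8 weeks, and 0 to 5 for 8 versus 4 weeks. At 2 weeks against control, 0 were called without cachectic replicate 3 or 4 or control replicate 2 or 5, 1 without control replicate 4, and 7, 11 and 14 without cachectic replicates 5, 1 and 2. At 6 weeks the low counts were 2 without cachectic replicate 1, against either reference, 5 without cachectic replicate 2 or control replicate 1 against control, and 5 without non-cachectic replicate 4 or 5 against non-cachectic mice. For 8 versus 4 weeks, 5 were called without cachectic replicate 2 at 4 weeks or 7 at 8 weeks and 4 without replicate 3 at 8 weeks; 0 were called without replicates 1, 3 or 5 at 4 weeks or 1, 2 or 6 at 8 weeks, and 1 without replicate 4 at either week. Psmd4 at 6 weeks ranged from 0.57 to 0.73 on the log2 scale, and lost its call without cachectic replicate 1 (adjusted p = 0.0607).

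Of the 37 subunits, 10 at 6 weeks and 11 at 8 weeks had log2 fold changes against control of different sign under the 4 scalings. Among the 9 subunits given in every mouse, those whose sign turned under an alternative were the catalytic ones. At 6 weeks Psmb5 had log2 fold changes of -0.14 with median-ratio scaling, -0.12 with quantile normalization and with non-mitochondrial scaling, the same -0.12 and -0.14 with the 4 libraries also left out, and -0.0139 without control replicate 1. Psmb7 had -0.16, -0.13 and -0.14, then -0.14 and -0.16, and Psmb6 had -0.0223 with median-ratio scaling and -0.0159 with the 4 libraries also left out. At 8 weeks Psmb5 had 0.12 with median-ratio scaling and 0.000823 without control replicate 2, Psmb6 had -0.0363 with non-mitochondrial scaling without the 4 libraries, and Psmb7 had -0.0833 with array weights, -0.0119 without the 4 libraries and without cachectic replicate 3, and -0.18 and -0.0723 with the 4 libraries left out and non-mitochondrial or median-ratio scaling.

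Replicate numbers did not pair the mice: in 0 of 12 comparisons did all 5 correlations of same-numbered mice exceed 0.1 (range -0.633 to 0.387), and 11 of 60 mice correlated best with their own number. The replicate block moved no other count by more than 1.5 times. Of the single-subunit values under the alternatives, 363 kept their side of the threshold, 20 lost and 10 gained a call and 21 turned sign. Depth in reads is unknown, so small differences of low genes such as Psmf1 cannot be bounded by counting error.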
